A study of Mus musculus with 6 samples.

Results

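The 10 genes described here encode subunits of voltage-gated calcium channels: the α1 subunits Cacna1a, Cacna1b, Cacna1c, Cacna1d, Cacna1e, Cacna1g, Cacna1h and Cacna1i, and the α2δ subunits Cacna2d1 and Cacna2d2. All 10 symbols were found among the 35976 genes counted in each culture. RNA-sequencing was performed on 6 cultures of sensory neurons from the dorsal root ganglia (DRGs) next to the spinal cord, prepared from all lumbar DRGs of adult wild-type C57BL/6 mice of both sexes. Cultures grew in medium with serum and growth factors for 24 h before exposure, which lasted 24 h, to vehicle in 3 of them and to HC-HA/PTX3 at 15 µg/mL in the other 3. HC-HA/PTX3, purified from human amniotic membrane, joins hyaluronic acid with pentraxin 3 and with heavy chain 1 of the protease inhibitor IαI. The question was whether a day of HC-HA/PTX3 changed the RNA of these channel genes.

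Voltage-gated calcium channels open when the membrane depolarizes and let calcium enter the cell. Each has a pore-forming α1 subunit that sets its voltage range and drug sensitivity, and the high-voltage-activated Cav1 and Cav2 channels also carry a β subunit and an α2δ subunit that aid their delivery to the membrane. In sensory neurons, Cav2 channels drive transmitter release, Cav1 channels couple activity to transcription, low-voltage-activated Cav3 channels tune excitability near the resting potential, and α2δ-1 is the binding site of gabapentin.

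The libraries held 37434266 to 54117547 counts, so that 1 CPM, the unit of level used here (counts relative to library size, scaled by TMM), stood for 37.1 to 56.0 reads. The labelled cell type was checked on marker genes. The 10 neuronal markers, led by Tubb3, summed to 7270, 5882 and 6752 CPM in vehicle replicates 1, 2 and 3 and to 7414, 6506 and 7660 CPM in the HC-HA/PTX3 replicates. The 14 sensory neuron subtype genes, led by Scn10a, summed to 2429 to 2593 CPM in vehicle and 2467 to 2852 CPM in HC-HA/PTX3. The neuronal label was thus borne out in every culture, but the cultures were not neurons alone. The 8 satellite glia markers, led by Apoe, reached 2180, 1265 and 508 CPM in vehicle and 2066, 1282 and 510 CPM in HC-HA/PTX3, lowest in replicate 3 of both groups. The 5 fibroblast markers, led by Col1a1, reached 1469, 1415 and 628 CPM in vehicle and 765, 844 and 218 CPM in HC-HA/PTX3, lower in the treated culture of every pair. Col1a1 and Col1a2 made up most of this difference, while Dcn had 131, 143 and 72.6 CPM in vehicle and 122, 141 and 65.1 CPM in HC-HA/PTX3.

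Every member passed the filter on low counts and was tested. Per kilobase of exon, the vehicle levels spanned a wide range, from the α2δ-1 gene Cacna2d1 at 40.9 ± 5.88 CPM per kb (mean ± SD, n = 3, as for all levels per kb) down to the Cav3.1 gene Cacna1g at 0.148 ± 0.0306. Cacna2d1 was followed by the N-type gene Cacna1b at 20.7 ± 2.77 and the P/Q-type gene Cacna1a at 19.1 ± 0.657, whose vehicle ranges overlapped. The L-type gene Cacna1c at 8.43 ± 1.28, the T-type gene Cacna1h at 6.02 ± 1.66 and the α2δ-2 gene Cacna2d2 at 4.07 ± 0.77 formed the middle of the order, each overlapping its neighbour there. The R-type gene Cacna1e at 1.38 ± 0.14 and the L-type gene Cacna1d at 1.06 ± 0.145 lay lower and apart from each other. At the bottom, the Cav3.3 gene Cacna1i at 0.206 ± 0.123 and Cacna1g overlapped. The order was the same with the longest transcript as the length, chosen after the data were seen, except that Cacna1a and Cacna1b changed places.

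**Figure D1:**
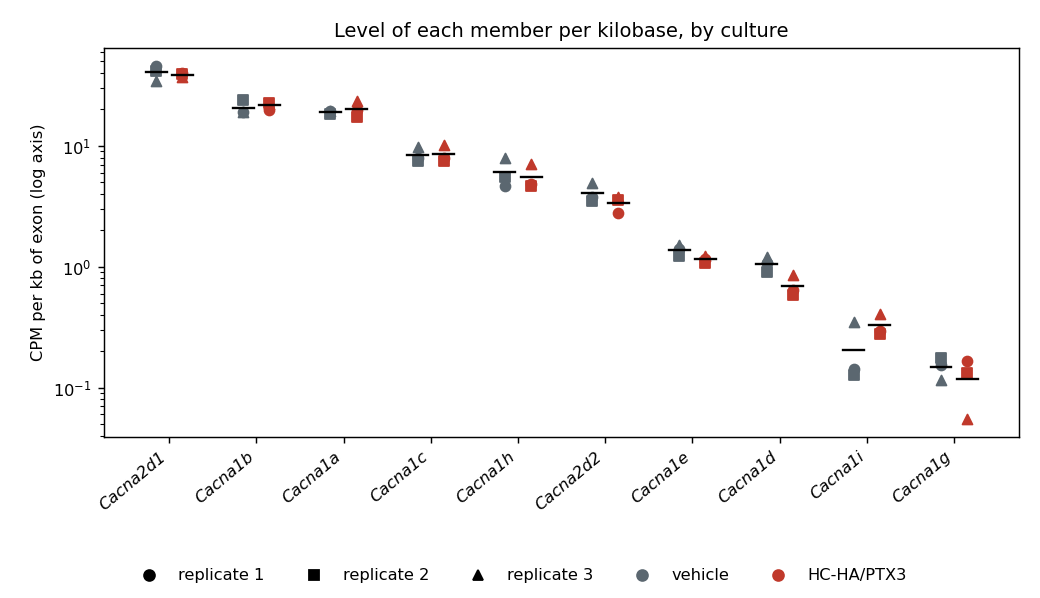
Levels of the 10 members in CPM per kilobase of exon (log axis) in each culture, ordered by the vehicle mean. Symbols are single cultures and black lines are the means of 3 cultures; Cacna2d1 lies highest at 40.9 CPM per kb and Cacna1g lowest at 0.148 in vehicle.

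Taken per kilobase, the Cav2 genes Cacna1a, Cacna1b and Cacna1e made up most of the RNA of the 8 α1 members, 72.3 ± 4.20% in vehicle and 74.1 ± 2.04% in HC-HA/PTX3 (SD, n = 3). The Cav1 genes Cacna1c and Cacna1d held 16.6 ± 2.04% and 15.8 ± 0.871%, and the 3 Cav3 genes 11.1 ± 2.51% and 10.2 ± 1.20%. For all 3 classes the groups differed by less than the SD of the vehicle cultures. Within the Cav1 class, however, the share of Cacna1d among the α1 members was 2.01, 1.58 and 2% in the vehicle cultures and 1.18, 1.08 and 1.29% in the HC-HA/PTX3 cultures, without overlap. The shares of Cacna1e, in the Cav2 class, also did not overlap, at 2.12 to 2.62% in vehicle and 1.87 to 2.1% in HC-HA/PTX3. In CPM, the groups did not overlap for 18.0% of all tested genes, and those of Cacna1e overlapped.

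The changes below are those within same-numbered replicates, from edgeR's quasi-likelihood test with the replicate number as a block and Benjamini-Hochberg adjustment over all 18277 tested genes. A call needed an adjusted p-value below 0.05 together with a log2 fold change beyond 0.5 in size. Of the 10 members, 2 were called, Cacna1d lower and Cacna1i higher, where 8.70% of all tested genes were called (1591 genes), 3.32% higher and 5.38% lower. The share of lower calls was 61.8% of 1591. It was 69.6% of 1226 with DESeq2, 71.8% of 878 without replicate 1 and 51.8% of 2082 with ComBat-seq, the other batch correction of the study's methods. ComBat-seq followed by limma made many false calls on counts simulated from the edgeR fit with the block. The median log2 fold change was -0.095 for the members and -0.0067 for all tested genes. Without replicate 1, the fit called 878 genes and 1 member, Cacna1d. With treatment as the only term, edgeR called 0 of the 10 members and 0% of all tested genes, with 1 member (Cacna1d) and 2089 genes at an unadjusted p-value under 0.05, so every call here rests on the pairing.

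**Figure D2:**
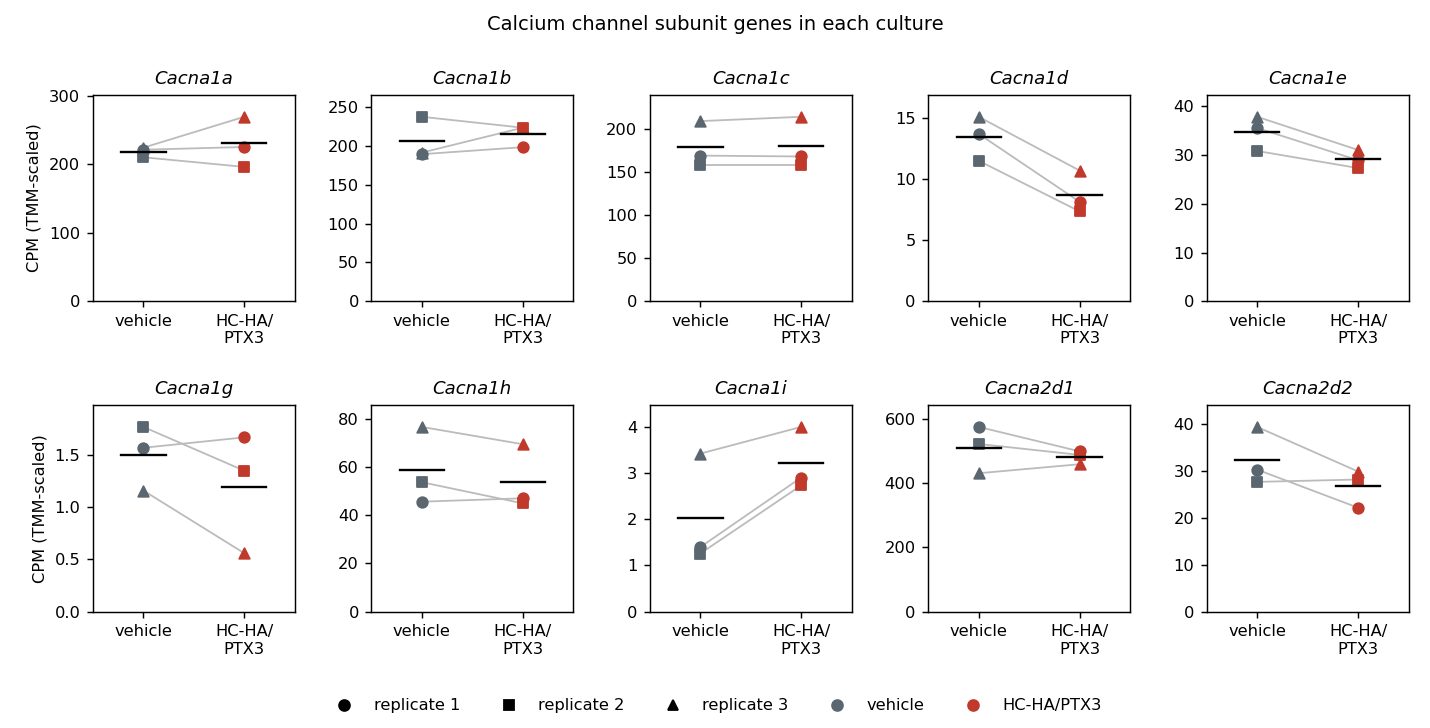
TMM-scaled CPM of each member in the 6 cultures; grey lines join same-numbered replicates and black bars are group means of 3 cultures, with a separate vertical axis from 0 for each gene. Cacna1d was lower in the treated culture of all 3 pairs, with 11.5 to 15.1 CPM in vehicle and 7.36 to 10.7 CPM in HC-HA/PTX3, and Cacna1i was higher in all 3.

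Among the Cav1 genes, Cacna1d was lower after HC-HA/PTX3. It encodes Cav1.3, an L-type channel that opens at more negative voltages than Cav1.2. Its level was 13.7, 11.5 and 15.1 CPM in vehicle replicates 1, 2 and 3 and 8.14, 7.36 and 10.7 CPM in the HC-HA/PTX3 replicates. All 3 treated cultures lay below all 3 vehicle cultures, and replicate 2 was the lowest of both groups. Cacna1d was the only member whose groups did not overlap, as was the case for 18.0% of all tested genes. In the fit with the block its level fell by 0.63 on the log2 scale (SE 0.11, 95% interval -0.87 to -0.38), a ratio of 0.648, with an adjusted p-value of 0.00414. With treatment as the only term, the change was -0.62 with an adjusted p-value of 0.320. Cacna1d stayed called whichever pair was left out with the block. It also stayed called under the 6 other filters, scalings and tools that took the replicate number in as a block or, for ComBat-seq, as a prior correction.

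In GENCODE M21 (GRCm38), Cacna1d spans chr14:30039939-30491455 on the minus strand. Its exons share 589 bases, 4.67% of their union, with exons of Chdh on the other strand. The strand setting of the counting is not given in the sources used here, so reads from the shared bases cannot be assigned. Chdh held 13 to 31 reads per culture and Cacna1d 279 to 846. The part of the shared bases in the Cacna1d count was not tested.

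Cacna1c, the gene of Cav1.2, the L-type channel of heart and neurons, had 169, 158 and 209 CPM in vehicle and 168, 158 and 214 CPM in HC-HA/PTX3. Same-numbered cultures were nearly equal and replicate 3 was the highest in both groups. The fitted log2 fold change was 0.0080 (95% interval -0.12 to 0.14, adjusted p-value 0.944). Its sign turned with other settings.

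RefSeq promoter windows (GRCm38.p6) were held for 7 of the 10 members, in 10 windows. Cacna1d has 2 annotated starts, and the windows are shown because it is the member with the clearest change while the counts per gene do not tell which start was used. The 250 bases before each start are given 5′ to 3′ on the minus strand, the first from chr14:30491157-30491406 and the second, 137969 bases into the gene, from chr14:30353487-30353736. Capitals mark matches on either strand to the GC box GGGCGG, the cAMP response element TGACGTCA or the TATA box TATAAA, overlapping matches included.
Cacna1d, first start: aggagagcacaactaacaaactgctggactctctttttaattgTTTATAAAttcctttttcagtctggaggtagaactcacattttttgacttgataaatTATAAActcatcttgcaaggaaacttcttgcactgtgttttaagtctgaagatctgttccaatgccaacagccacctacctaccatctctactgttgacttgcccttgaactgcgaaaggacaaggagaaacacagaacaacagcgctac
Cacna1d, second start: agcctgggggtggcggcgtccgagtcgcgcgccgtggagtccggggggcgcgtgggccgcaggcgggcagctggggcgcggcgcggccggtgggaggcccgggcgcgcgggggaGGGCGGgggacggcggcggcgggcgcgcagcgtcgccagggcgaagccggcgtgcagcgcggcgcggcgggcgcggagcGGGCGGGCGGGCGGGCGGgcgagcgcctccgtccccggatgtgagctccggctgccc
The first stretch had 39.6% G and C, 3 TATAAA matches and no GC box, and lies wholly within an exon of a non-coding retained-intron transcript of the gene. The second had 86.4% G and C and 5 GC boxes, 4 of them in 1 repeated run, and lies in no annotated exon. Over all 32851 RefSeq windows of 300 bases, 35.7% held a GC box, 13.6% a TATA box and 1.79% a cAMP response element. Of the 10 member windows, 5 held a GC box, 1 a TATA box and 0 a cAMP response element.

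The Cav2 genes, whose channels trigger transmitter release at the sensory neuron's terminals, included the highest α1 levels. Cacna1a (Cav2.1) had 221, 210 and 224 CPM in vehicle and 225, 196 and 269 CPM in HC-HA/PTX3. Cacna1b (Cav2.2, the target of ziconotide) had 189, 237 and 191 CPM in vehicle and 198, 223 and 223 CPM in HC-HA/PTX3. For both genes the treated culture was higher in replicates 1 and 3 and lower in replicate 2, and the groups overlapped. Neither passed the test: the log2 fold change was 0.07 for Cacna1a (95% interval -0.098 to 0.23, adjusted p-value 0.575) and 0.07 for Cacna1b (-0.090 to 0.22, adjusted p-value 0.554).

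Cacna1e, the gene of the R-type channel Cav2.3, had 35.5, 30.8 and 37.8 CPM in vehicle and 28.9, 27.3 and 31.0 CPM in HC-HA/PTX3. It was lower in the treated culture of all 3 pairs, although treated replicate 3 lay just above vehicle replicate 2, so the groups overlapped. The log2 fold change was -0.25 (SE 0.077, 95% interval -0.43 to -0.082) with an adjusted p-value of 0.0441, under the p-value threshold but short of the fold threshold, so it was not called. By the p-value alone 3 of the 10 members passed, where 19.2% of all tested genes did. Over the 6 other filters, scalings and tools with the block or, for ComBat-seq, a prior correction by replicate number, the adjusted p-value of Cacna1e ran from 0.0109 to 0.0763. It was over 0.05 whichever pair was left out (0.0925 to 0.217), and 0.466 with treatment as the only term.

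The Cav3 genes differed widely in level per kb, and 1 of the 3 was called, beside 8.70% of all tested genes. Cacna1i, which encodes Cav3.3, the T-type channel with the slowest kinetics, was called higher. Its CPM was 1.40, 1.26 and 3.43 in vehicle and 2.91, 2.74 and 4.01 in HC-HA/PTX3, from 54 to 192 reads per culture. Replicate 3 stood above replicates 1 and 2 in both groups, and vehicle replicate 3 lay above treated replicates 1 and 2, so that the groups overlapped while each pair moved the same way. The log2 ratios within the pairs were 1.06, 1.13 and 0.23. In the fit with the block Cacna1i rose by 0.75 on the log2 scale (SE 0.21, 95% interval 0.27 to 1.22), a ratio of 1.68, with an adjusted p-value of 0.0352. The call was lost with DESeq2 (adjusted p-value 0.0509), with limma-voom (0.0513), without replicate 1 (0.189), without replicate 2 (0.176) and with treatment as the only term (0.616), and without replicate 3 the log2 fold change was 1.11 (adjusted p-value 0.00391).

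Cacna1i lies at chr15:80287238-80398279 on the plus strand of GRCm38. The 250 bases before its RefSeq start, chr15:80286988-80287237, are printed beside the change in the opposite direction at Cacna1d, with capitals as above.
Cacna1i: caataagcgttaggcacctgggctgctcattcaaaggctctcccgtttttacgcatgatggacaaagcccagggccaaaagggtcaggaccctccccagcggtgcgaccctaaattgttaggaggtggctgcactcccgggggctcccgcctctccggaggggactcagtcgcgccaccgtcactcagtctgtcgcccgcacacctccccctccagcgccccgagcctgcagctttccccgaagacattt
This stretch had 62.4% G and C and held 0 matches to the 3 motifs.

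Cacna1h encodes Cav3.2, the main T-type channel of DRG neurons. It had 45.7, 53.8 and 76.8 CPM in vehicle and 47.1, 45.0 and 69.6 CPM in HC-HA/PTX3. Replicate 3 was the highest in both groups, and the pairs did not share a direction. The log2 fold change was -0.12 (95% interval -0.29 to 0.051, adjusted p-value 0.310). Cacna1g, the gene of Cav3.1, had 1.57, 1.77 and 1.16 CPM in vehicle and 1.67, 1.35 and 0.559 CPM in HC-HA/PTX3, from 22 to 76 reads. Replicate 3 was the lowest in both groups, the reverse of the other Cav3 genes, and the treated culture was lower in replicates 2 and 3 but not in replicate 1. At this depth the log2 fold change of -0.40 had a wide interval (-0.97 to 0.16, adjusted p-value 0.302), which reaches past the fold threshold in the lower direction.

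The α2δ genes followed. Cacna2d1 had 574, 521 and 430 CPM in vehicle and 498, 487 and 458 CPM in HC-HA/PTX3. The treated values lay inside the vehicle range, with a log2 fold change of -0.071 (95% interval -0.23 to 0.087, adjusted p-value 0.532). Cacna2d2, which encodes another gabapentin-binding α2δ subunit, had 30.2, 27.6 and 39.3 CPM in vehicle and 22.1, 28.1 and 29.8 CPM in HC-HA/PTX3. It was lower in treated replicates 1 and 3 and nearly equal in replicate 2, with a log2 fold change of -0.27 (95% interval -0.50 to -0.048) and an adjusted p-value of 0.0879, which went below 0.05 with the looser count filter (0.0321) and without replicate 2 (0.0346).

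**Figure D3:**
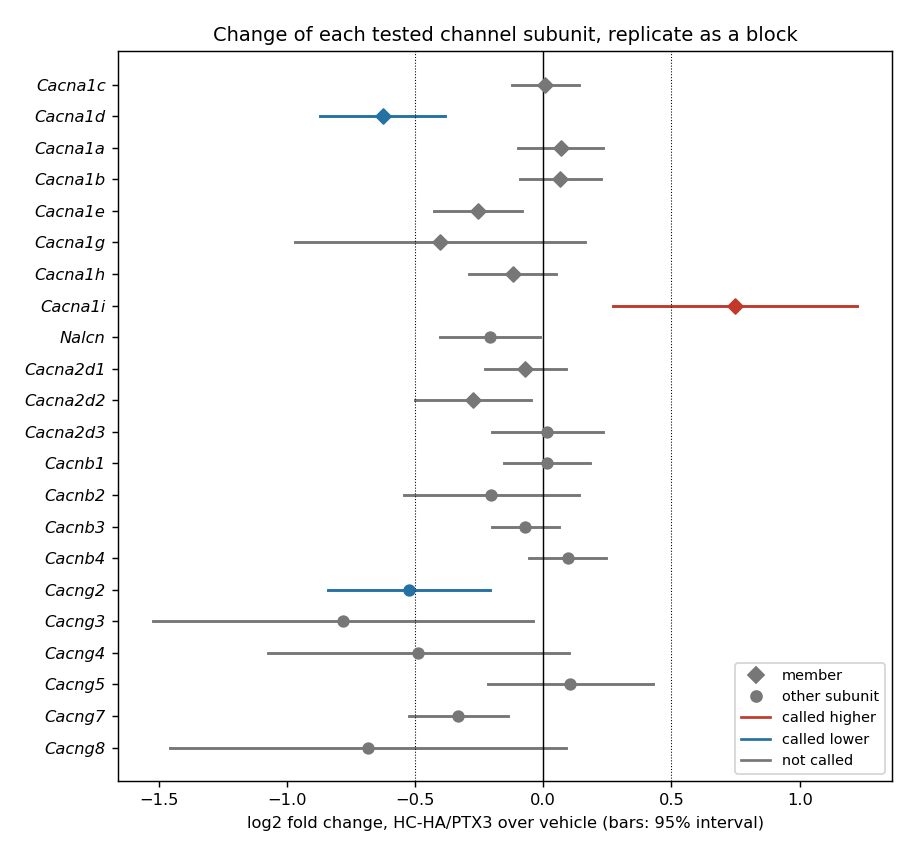
Log2 fold change of HC-HA/PTX3 over vehicle with its 95% interval for the 22 tested channel subunit genes, fitted within replicate numbers; dotted lines mark the fold threshold of 0.5 in each direction. Cacna1d (-0.63) and Cacng2 (-0.52) were called lower and Cacna1i (0.75) higher.

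Of the other α1 genes, Cacna1s and Cacna1f, the L-type channels of skeletal muscle and retina, held at most 6 and 2 reads per culture and were not tested. Nalcn, the sodium leak channel related to α1 subunits, was tested and had a log2 fold change of -0.21 (95% interval -0.40 to -0.013, adjusted p-value 0.127). Of the other α2δ genes, Cacna2d3 was at 0.015 (-0.20 to 0.23, adjusted p-value 0.938) and Cacna2d4 held at most 2 reads per culture and was not tested.

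The β subunits, cytoplasmic partners that help α1 subunits reach the membrane, were all tested and 0 of 4 were called, beside 8.70% of all tested genes. Per kilobase, Cacnb3 led at 54.5 ± 6.86 CPM per kb in vehicle, above Cacnb4 at 17.6 ± 2.44 and Cacnb1 at 13.2 ± 1.46, and Cacnb2 lay far lower at 0.303 ± 0.0342. Cacnb4 shares 16% of its exon bases with the antisense gene A430018G15Rik. The log2 fold changes were -0.071 for Cacnb3, 0.095 for Cacnb4, 0.015 for Cacnb1 and -0.20 for Cacnb2, with adjusted p-values of 0.439, 0.362, 0.915 and 0.390. The intervals lay within -0.20 and 0.25 for the 3 more abundant genes and reached from -0.54 to 0.14 for Cacnb2. Cacnb2 was the only β gene whose groups did not overlap, at 3.64 to 4.52 CPM in vehicle and 3.37 to 3.55 CPM in HC-HA/PTX3, as was the case for 18.0% of all tested genes.

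The γ family contains the muscle channel subunit Cacng1 and proteins better known as partners of AMPA-type glutamate receptors. Of 8 genes, 6 were tested, while Cacng1 held at most 8 reads per culture and Cacng6 held 0. Of the tested γ genes 1 was called (16.7%, beside 8.70% of all tested genes), and the median log2 fold change was -0.505. By the p-value alone 33.3% of them passed, beside 19.2% of all tested genes. Cacng2 (stargazin) had 12.3, 5.49 and 9.73 CPM in vehicle and 6.87, 3.88 and 8.30 CPM in HC-HA/PTX3. Replicate 2 was the lowest of both groups, each treated culture was below its partner, and the groups overlapped. Cacng2 fell by 0.52 on the log2 scale (SE 0.14, 95% interval -0.84 to -0.21, adjusted p-value 0.0294) and was the only γ gene called in this fit. That call lay at the fold threshold: it was lost with upper-quartile scaling (-0.49), without replicate 1 (-0.36, adjusted p-value 0.248), without replicate 2 (adjusted p-value 0.0972) and with treatment as the only term (adjusted p-value 0.654).

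Cacng7, the most abundant γ gene, had 108, 70.9 and 95 CPM in vehicle and 71.7, 58.0 and 87.7 CPM in HC-HA/PTX3. It was lower in the treated culture of all 3 pairs, with overlapping groups, and passed the p-value threshold but not the fold threshold (log2 fold change -0.33, 95% interval -0.52 to -0.14, adjusted p-value 0.0248, but 0.140 without replicate 1 and 0.098 without replicate 2). The remaining γ genes did not pass in this fit. Cacng3 was at -0.78 (-1.52 to -0.040, adjusted p-value 0.131) and was called lower only with ComBat-seq (-0.63, adjusted p-value 0.0235). Cacng8 was at -0.68 (-1.46 to 0.091, adjusted p-value 0.201) and Cacng5 at 0.11 (-0.21 to 0.43, adjusted p-value 0.655). Cacng4, at -0.49 (-1.07 to 0.099, adjusted p-value 0.228), had 2.85, 2.33 and 0.464 CPM in vehicle and 2.99, 1.16 and 0.254 CPM in HC-HA/PTX3, the same order of replicates as the satellite glia markers, whose part in its level was not tested.

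Among 21 channel regulators, proteins that bind, traffic or modulate calcium channels, 1 was called higher and 2 lower (14.3% of those tested, beside 8.70% of all tested genes), and the median log2 fold change was -0.0044. Gem, a small GTPase that holds back high-voltage-activated channels through β subunits, had 3.65, 4.26 and 6.04 CPM in vehicle and 6.30, 5.25 and 9.50 CPM in HC-HA/PTX3. It was higher in the treated culture of every pair, with overlapping groups, and rose by 0.58 on the log2 scale (SE 0.14, 95% interval 0.27 to 0.90, adjusted p-value 0.0184). The call was lost without replicate 1 (adjusted p-value 0.136) and with treatment as the only term (adjusted p-value 0.503).

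Thbs1 and Thbs2, matrix thrombospondins known as α2δ-1 ligands, were called lower. Thbs1 had 267, 446 and 744 CPM in vehicle and 175, 356 and 314 CPM in HC-HA/PTX3, and fell by 0.73 on the log2 scale (95% interval -1.03 to -0.42, adjusted p-value 0.00559). Thbs2 had 150, 210 and 91.5 CPM in vehicle and 111, 178 and 48.1 CPM in HC-HA/PTX3, and fell by 0.53 (-0.77 to -0.29, adjusted p-value 0.00816). Both were lower in every pair, most in replicate 3, and overlapped between groups. Without replicate 3 neither was called, at -0.45 and -0.32. Thbs1 was also not called with DESeq2 (adjusted p-value 0.0501), nor Thbs2 with upper-quartile scaling (-0.498) or ComBat-seq (-0.47), and neither with treatment as the only term (adjusted p-values 0.521 and 0.804). Both are also expressed by fibroblasts, whose marker sum, set mostly by Col1a1 and Col1a2, was lower in every treated culture than in its partner, and the part of that difference in the thrombospondin result was not tested. Dpysl2 (CRMP2), an abundant regulator, had a mean vehicle level of 941 CPM and a log2 fold change of -0.0089 (95% interval -0.15 to 0.13, adjusted p-value 0.942). Under the fold threshold but past the p-value threshold, and named after their values were seen, were Cabp1 (0.37, adjusted p-value 0.0031) and Rimbp2 (-0.40, adjusted p-value 0.0122, and 0.102 without replicate 1). By the p-value alone 23.8% of the 21 regulators passed, beside 19.2% of all tested genes.

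**Figure D4:**
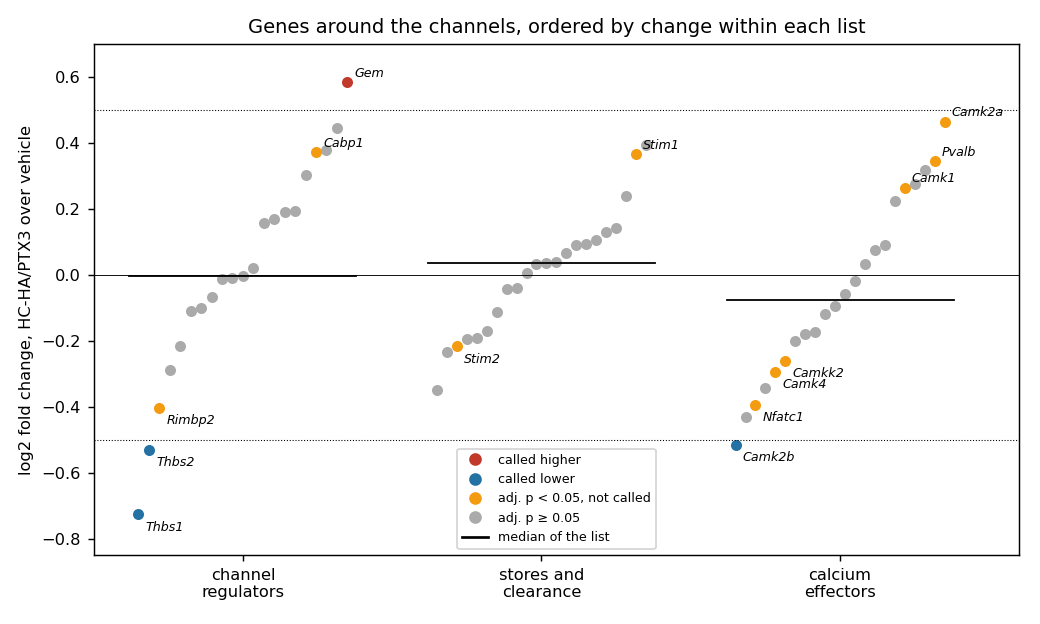
Log2 fold change of each tested channel regulator, calcium store or clearance gene, and calcium effector, ordered within its list, with the list's median as a black line and the fold threshold of 0.5 dotted. Gem (0.58) was called higher and Thbs1 (-0.73), Thbs2 (-0.53) and Camk2b (-0.52) lower.

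Of 23 genes for calcium stores and clearance, 22 were tested and 0 were called, against 8.70% of all tested genes, and their median log2 fold change was 0.034. By the unadjusted p-value of the fit without the block, 1 of them passed 0.05, as did 2089 of all 18277 tested genes. The untested one, the muscle pump gene Atp2a1, held at most 9 reads per culture. The most abundant were Atp2b1, a plasma membrane calcium pump, and Atp2a2, the SERCA2 pump of the endoplasmic reticulum, with mean vehicle levels of 447 and 404 CPM and log2 fold changes of 0.067 and -0.043 (adjusted p-values 0.543 and 0.679). The 2 that passed the p-value threshold alone were the paralogous calcium sensors of the endoplasmic reticulum, named after their values were seen. Stim1 had 44.3, 42.4 and 45.8 CPM in vehicle and 61.3, 52.5 and 57.0 CPM in HC-HA/PTX3, and Stim2 had 101, 87.6 and 98.7 CPM in vehicle and 80.4, 81.2 and 85.5 CPM in HC-HA/PTX3. The 2 genes lay in opposite directions without overlap between groups, at 0.36 (adjusted p-value 0.00701) for Stim1 and -0.22 (adjusted p-value 0.0466) for Stim2. These 2 of 22 genes (9.09%) stand beside 19.2% of all tested genes under the p-value threshold and 18.0% without overlap. Stim2 was over the threshold with upper-quartile scaling (0.0789), with DESeq2 (0.0791) and whichever pair was left out (0.079 to 0.226), and Stim1 without replicate 1 (0.051).

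Of 22 calcium effectors, which carry the calcium signal onward, 1 was called (4.55% of those tested, beside 8.70% of all tested genes) and the median log2 fold change was -0.076. Camk2b, which encodes the β subunit of the kinase CaMKII, had 31.8, 26.1 and 36.9 CPM in vehicle and 22, 17.3 and 27.5 CPM in HC-HA/PTX3. It was lower in the treated culture of every pair, and the groups overlapped in 1 culture of each. Camk2b fell by 0.52 on the log2 scale (SE 0.082, 95% interval -0.70 to -0.33, adjusted p-value 0.00273), again at the fold threshold: it was not called with upper-quartile scaling (-0.48), without replicate 2 (-0.48) or with treatment as the only term (adjusted p-value 0.423). Camk2a, the α subunit of the same kinase, had 106, 78.1 and 67.9 CPM in vehicle and 153, 108 and 89.2 CPM in HC-HA/PTX3, higher in every pair at 0.46 (adjusted p-value 0.00129) and short of the fold threshold. It was called only without replicate 3 (0.51). Past the p-value threshold alone, and likewise named after their values were seen, were also Camk1 (0.26, adjusted p-value 0.0154), Pvalb (0.34, adjusted p-value 0.0436), Nfatc1 (-0.39, adjusted p-value 0.025), Camk4 (-0.29, adjusted p-value 0.0264) and Camkk2 (-0.26, adjusted p-value 0.029). By the p-value alone 31.8% of the effectors passed, beside 19.2% of all tested genes. Whichever pair was left out, the adjusted p-value was over 0.05 for Pvalb (0.102 to 0.191), Nfatc1 (0.0526 to 0.2) and Camkk2 (0.0675 to 0.186). It was also over 0.05 for Camk1 without replicate 2 (0.0716) or 3 (0.0813), for Camk4 without replicate 1 (0.175) or 2 (0.0895), and for Pvalb with DESeq2 (0.0837) and the looser count filter (0.0697). The most abundant effectors, Ppp3ca (calcineurin) and Camk2d, were at 0.076 and -0.093 (adjusted p-values 0.474 and 0.353).

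**Figure D5:**
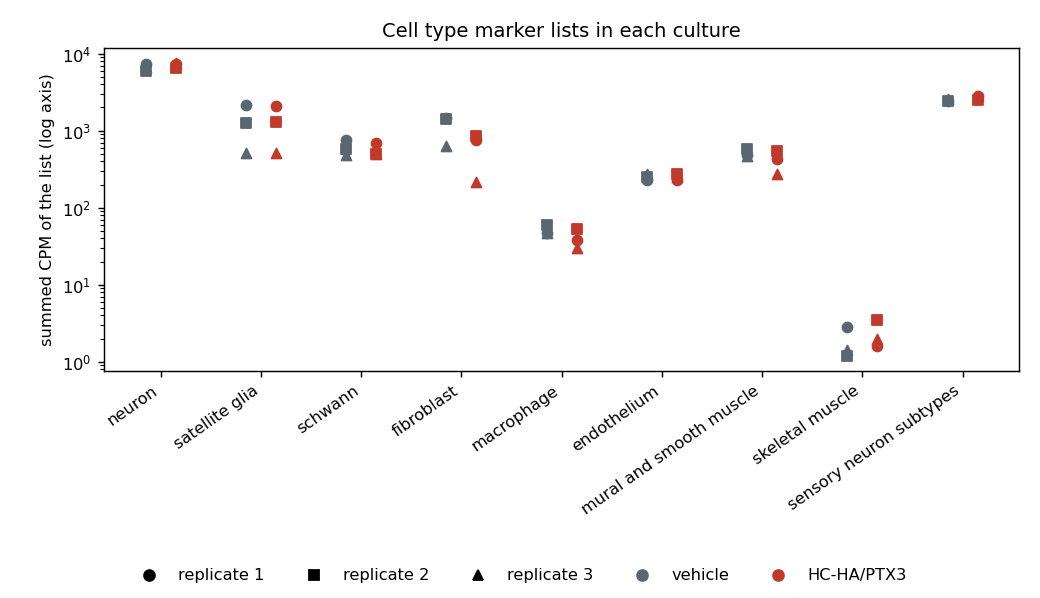
Summed CPM (log axis) of each cell type marker list in the 6 cultures, with the replicate number as the symbol. The fibroblast sum was lower in the treated culture of every pair, satellite glia markers were lowest in replicate 3 of both groups, and skeletal muscle markers were at 1.19 to 3.53 CPM.

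The marker lists put these values beside the makeup of the cultures, and in bulk RNA fewer cells of a type and less RNA per cell cannot be told apart. No neuronal marker was called among 10 tested (median log2 fold change 0.12), and 0 of 8 satellite glia markers (-0.069), beside 8.70% of all tested genes. By the p-value alone, and named after their values were seen, 2 neuronal markers passed (20% of the list), Uchl1 (0.32, adjusted p-value 0.00853) and Elavl4 (-0.28, adjusted p-value 0.0404). So did 3 satellite glia markers (37.5%), Glul (0.28, adjusted p-value 0.0198), Fabp7 (-0.40, adjusted p-value 0.0154) and Kcnj10 (-0.34, adjusted p-value 0.0108), where 19.2% of all tested genes did. Elavl4, Fabp7 and Kcnj10 were lower in every pair and Uchl1 and Glul higher. Without replicate 2 all 5 were over the threshold, with adjusted p-values of 0.0706 for Fabp7, 0.0901 for Uchl1, 0.105 for Elavl4, 0.109 for Kcnj10 and 0.166 for Glul. Without replicate 1 Fabp7 (0.220), Elavl4 (0.162) and Kcnj10 (0.0866) were over it too, as was Elavl4 with upper-quartile scaling (0.0688) and ComBat-seq (0.0584). None of the 5 endothelial markers was called (-0.077), and of 4 skeletal muscle markers only Acta1 was abundant enough to be tested (0.45) and it was not called. Endothelial markers, led by Cdh5, summed to 228 to 274 CPM in vehicle and 229 to 276 CPM in HC-HA/PTX3. Of 5 Schwann cell markers, led by Pmp22, 0 were called (-0.30) and Mbp passed the p-value threshold alone (-0.31, adjusted p-value 0.0139, and 0.113 without replicate 2), and they summed to 487 to 762 CPM in vehicle and 492 to 685 CPM in HC-HA/PTX3. No listed marker was at 0 in all cultures.

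The called markers, named after their values were seen, lay in 4 lists, where 3.32% of all tested genes were called higher and 5.38% lower. Of the sensory neuron subtype genes 3 of 14 were called higher (list median 0.23): Tac1 (1.005), Mrgprd (0.62) and Nppb (0.89). Th (0.44, adjusted p-value 0.0172) and Pvalb passed the p-value threshold alone, and Th was over it without replicate 1 (0.133) or 2 (0.0752) and called without replicate 3 (0.57). Genes called lower were Col1a1 (-1.62) and Col1a2 (-1.11) of 5 fibroblast markers (median -0.31), C1qa (-0.74) and C1qb (-0.82) of 7 macrophage markers (-0.40) and Acta2 (-1.03) and Tagln (-0.99) of 6 mural and smooth muscle markers (-0.42). Not all of these calls held: without replicate 1 those of Nppb (adjusted p-value 0.098), Tagln (0.0594), C1qa (0.126) and C1qb (0.0581) were lost, and without replicate 3 those of C1qa (log2 fold change -0.41) and C1qb (-0.48). With DESeq2 Acta2 (adjusted p-value 0.0849) and Tagln (0.109) were not called, and with ComBat-seq C1qa (0.0752) and Tagln (0.0648) were not. Macrophage markers, led by Cd68, summed to 46.5, 60.5 and 47.3 CPM in vehicle and 38, 53.6 and 30.3 CPM in HC-HA/PTX3. Mural markers, led by Pdgfrb, summed to 488, 577 and 470 CPM in vehicle and 433, 545 and 277 CPM in HC-HA/PTX3. Acta2 and Tagln were lower in every treated culture than in its partner, while Rgs5 was higher in every pair (0.15, adjusted p-value 0.104) and Pdgfrb was higher in replicate 1 and lower in the others. Of the other markers, Dcn was at -0.092 and Cd68 at -0.0074 (adjusted p-values 0.327 and 0.968). Cacna1d was lower in every pair, as were Col1a1, Col1a2, C1qa, C1qb, Acta2 and Tagln. Elavl4, Fabp7, Kcnj10 and Mbp, past the p-value threshold alone, were also lower in every pair. The log2 ratios of Cacna1d in pairs 1, 2 and 3 were -0.747, -0.641 and -0.499. Those of Col1a1 were -1.6, -1.06 and -2.23, and all markers called lower fell most in pair 3. Those of Elavl4 were -0.539, -0.182 and -0.119. The part of non-neuronal cells in the change of Cacna1d was not tested.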

How the data were processed

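RNA was measured in 6 cultures, grouped by the treatment in their labels. The authors depleted ribosomal RNA, sequenced read pairs, aligned them to mm10 and deposited raw counts per gene from featureCounts, as whole numbers without normalization. The methods name HISAT2 and the count file headers RNA STAR. The strand setting, tool versions and the batch of each culture are not given in the sources used here.

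Counts were analysed in R 4.3.3 with edgeR 4.0.16 (filterByExpr, TMM, glmQLFit and glmQLFTest), with limma 3.58.1, DESeq2 1.42.0 and sva 3.50.0 for alternatives. Of 35976 genes, 18277 were tested. The methods use a batch term, for which the replicate number stood in as a block. To check it, each culture's departure from its group mean was compared across genes: the correlation was 0.631, 0.536 and 0.774 between cultures of the same number, each over the limit of 0.1, and -0.613 to 0.148 between cultures of different numbers. Chi-square per degree of freedom between replicates of a group was 31.4 to 108, where about 1 would mean repeat counting of the same library, so none was a duplicate. The study calls its samples biological replicates, but no source used here says whether they came from separate animals. With the block, p-values and intervals measure how the change varied between the 3 same-numbered pairs, a spread that may be technical. With treatment as the only term, p-values measure the spread between cultures of a group, which may be technical too. An exact permutation test of 3 against 3 cannot go below 0.1, so none is given. The 95% intervals come from the quasi-likelihood F statistic. The edgeR fits with and without the block, DESeq2, limma-voom and ComBat-seq followed by limma were tested on simulated counts with replicate effects. These counts were drawn from the fitted edgeR model with the block. The simulation thus matched that fit's own assumptions and cannot rank the fits on the real data. The fit without the block missed most small changes there, and ComBat-seq followed by limma made many false calls. ComBat-seq calls are printed only as an alternative.

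Exon lengths and positions are those of GENCODE M21 (GRCm38), matched by symbol, and promoter windows are RefSeq's. The methods name RefSeq genes in one place and an Ensembl transcriptome in another, so the gene models used for counting may differ from these. Levels per kb, shares among the α1 members and exon overlaps depend on the gene models. Named genes are every member, every tested gene of the other α1, other α2δ, β and γ lists, of the channel regulator, calcium store and clearance, and calcium effector lists the called genes, of the latter 2 lists also the 2 genes with the highest vehicle mean, and of the regulators also Dpysl2. Other genes of these lists and of the marker lists are named after their values were seen. Some items of these lists are not reported here. Marker lists cover neurons, sensory neuron subtypes, satellite glia, Schwann cells, fibroblasts, macrophages, endothelium, mural and smooth muscle, and skeletal muscle. The members and lists were chosen with earlier results of these data known.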

Additional observations from a re-analysis of the deposited data

How the results depend on the processing

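The number of genes called, 1591 with the replicate block, was 0 with no replicate block, 3505 with no fold-change threshold, and 0 to 1571 when a replicate was left out, the 0 being reached whenever a single culture was left out of the fit with no block. The 2 members called became 0 with no replicate block, 1 with DESeq2, 1 with limma-voom and 0 to 2 when a replicate was left out. With the block kept, leaving out a pair gave 878 to 1571 genes and 1 to 2 members. The cause was not tested. Other filters, scalings and tools called 1226 to 2082 genes. Cacna1d kept its direction under all 16 alternatives (-0.79 to -0.52) and was called in 9 of them. Cacna1i kept its direction (0.41 to 1.27) and was called in 5. Both lost the call in each of the 7 fits with neither block nor batch correction. Signs turned only for genes that were not called. With all genes of at least 1 count, Cacna1c was at -0.0096, Cacna2d3 at -0.0033 and Cacnb1 at -0.0027, and with upper-quartile scaling Dpysl2 was at 0.023. When a pair was left out with the block, or a single culture without it, values ran from -0.049 to 0.17 for Cacna1a, -0.14 to 0.14 for Cacna1c, -0.68 to 0.013 for Cacna1g, -0.36 to 0.11 for Cacna1h, -0.19 to 0.014 for Cacna2d1, -0.12 to 0.15 for Cacna2d3, -0.16 to 0.12 for Cacnb1, -0.18 to 0.034 for Cacnb3, -1.38 to 0.16 for Cacng4, -0.13 to 0.44 for Cacng5, -0.10 to 0.071 for Dpysl2, -0.033 to 0.15 for Ppp3ca, -0.20 to 0.021 for Camk2d, -1.17 to 0.40 for Fabp7, -1.21 to 0.43 for Kcnj10 and -0.95 to 0.28 for Mbp. When a pair was left out with the block kept, signs turned only for Cacna1a, Cacna2d3, Cacnb1, Cacng5 and Dpysl2. TMM and raw library sizes gave mean CPM within 1 SD for each member and group. Depth limits Cacna1g and Cacna1i, with at most 76 and 192 reads per culture, more than the other members. Intervals cover the spread of the change between same-numbered pairs, and 3 reads corresponded to 0.0536 to 0.0808 CPM.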
